A study of Mus musculus with 8 samples.

Results

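The 6 genes described here encode the slow and cardiac myosin heavy chains *Myh7*, *Myh7b* and *Myh6* and the adult fast myosin heavy chains *Myh2* (type IIa), *Myh1* (type IIx) and *Myh4* (type IIb). They were chosen by symbol among the 19465 genes of the deposited matrices, and all 6 were found. Gene expression was measured by Visium spatial transcriptomics on 8 sections of embryonic mouse diaphragm, each 5 µm thick and read on 55 µm spots at a pitch of 100 µm. Control diaphragms were sampled at E14.5 (3 sections) and at E18.5 (2 sections), where the plug day was E0.5, and each control embryo carried at least 1 functional allele of CaV1.1 and of β-catenin. CaV1.1 KO embryos lack the voltage-gated calcium channel of skeletal muscle, gene *Cacna1s*, in every cell (CaV1.1 -/-) and were sampled once at each stage. The β-cat cKO embryo, sampled once at E18.5, carries floxed alleles of β-catenin (gene *Ctnnb1*) that are deleted by a Cre recombinase under the human skeletal actin promoter (HSA), so that the loss is limited to muscle fibers. As each mutant group is 1 section of 1 embryo, its error is that of the controls.

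A myosin heavy chain is the motor of the thick filament, and the isoform that a fiber carries sets its speed of contraction. Fetal skeletal muscle is dominated by the embryonic and perinatal isoforms (*Myh3* and *Myh8*), while the slow isoform *Myh7* marks early primary fibers and the later type I fibers, and the adult fast isoforms replace the fetal isoforms around and after birth. *Myh6* is the fast isoform of the heart, and *Myh7b* is an ancient slow isoform of heart, extraocular muscle and muscle spindles. CaV1.1 is the voltage sensor that couples the action potential to calcium release, and the muscle of embryos without it is paralyzed.

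*Myh2*, *Myh1* and *Myh4* lie next to each other, in this order and on the + strand, on chromosome 11 of GRCm38 (67171027-67197517, 67200102-67224577 and 67237812-67260447). *Myh6* and *Myh7* are neighbors on the − strand of chromosome 14 (54941921-54968017 and 54970684-54994626), and *Myh7b* lies on chromosome 2 (155611243-155634307, + strand). The promoters of the 3 adult fast genes, from 250 bases before to 50 bases after the start of the gene in RefSeq, are shown because the genes share a stretch of sequence there, while *Myh4* was the one of them that was called in CaV1.1 KO muscle at E18.5 on the TMM scale, as described further on. The promoter of *Myh7*, the slow gene with the highest counts, is shown for contrast. *Myh7* has 2 promoter entries, and the entry whose start lies nearest a GENCODE transcript start (0 bases away) was used. Capitals mark a run of 20 bases held by all 3 fast promoters, at 165 (*Myh1*), 130 (*Myh2*) and 163 (*Myh4*) bases before the start. Of all 32851 promoters of the table, 3 hold this run.
Myh2, chr11:67170777-67171076, + strand: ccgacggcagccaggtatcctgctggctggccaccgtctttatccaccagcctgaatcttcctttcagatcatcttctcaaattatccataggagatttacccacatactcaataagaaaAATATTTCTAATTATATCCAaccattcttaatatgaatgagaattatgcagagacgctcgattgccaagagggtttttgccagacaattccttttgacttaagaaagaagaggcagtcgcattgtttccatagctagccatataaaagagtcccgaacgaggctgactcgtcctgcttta
Myh1, chr11:67199852-67200151, + strand: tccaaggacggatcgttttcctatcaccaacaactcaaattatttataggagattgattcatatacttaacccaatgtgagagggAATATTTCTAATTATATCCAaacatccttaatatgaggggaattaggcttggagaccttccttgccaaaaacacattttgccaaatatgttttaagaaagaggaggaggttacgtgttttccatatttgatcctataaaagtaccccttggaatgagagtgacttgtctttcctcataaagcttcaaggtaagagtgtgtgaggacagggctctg
Myh4, chr11:67237562-67237861, + strand: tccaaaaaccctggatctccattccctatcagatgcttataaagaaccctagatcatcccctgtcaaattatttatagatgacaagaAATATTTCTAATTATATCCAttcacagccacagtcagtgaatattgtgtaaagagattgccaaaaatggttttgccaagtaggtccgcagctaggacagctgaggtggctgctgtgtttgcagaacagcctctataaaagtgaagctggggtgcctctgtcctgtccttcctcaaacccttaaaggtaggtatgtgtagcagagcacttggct
Myh7, chr14:54994577-54994876, − strand: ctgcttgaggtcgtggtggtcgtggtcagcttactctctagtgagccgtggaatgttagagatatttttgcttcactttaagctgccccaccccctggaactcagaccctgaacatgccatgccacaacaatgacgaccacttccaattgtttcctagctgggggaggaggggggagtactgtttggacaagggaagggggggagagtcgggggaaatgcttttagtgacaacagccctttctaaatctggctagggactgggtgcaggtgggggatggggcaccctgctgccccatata

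A short list of motifs was counted in the 6 promoters on both strands. The E-box CANNTG, read by the myogenic bHLH factors, was found 3 times in *Myh4*, 2 times each in *Myh7* and *Myh7b*, once in *Myh6* and not in the windows of *Myh1* or *Myh2*, and 72.3% of all promoters hold it. TATAAA, the TATA box, was found in *Myh1* (2), *Myh2* (1), *Myh4* (3) and *Myh6* (1), against 13.6% of all promoters. The HMG box AACAAT, bound by Sox factors, was found 2 times in *Myh7* and once in *Myh2*, against 10.7% of all promoters. MCAT (CATTCC), bound by Tead factors, was found once each in *Myh1*, *Myh4*, *Myh6* and *Myh7*, against 14.7%. The MEF2 motif was found once each in *Myh1* and *Myh4* (3.19% of all promoters), and the CArG box once in *Myh4* (1.63%). A MEF2 match can overlap a TATA box, and these matches are letters, not measured binding.

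The spots under tissue held 14179161 to 82859104 UMIs per section. Muscle spots, 491 to 581 per section at E14.5 and 813 to 3092 at E18.5, were taken as those above the threshold of the section in the mean of 9 sarcomere genes, none of them a member, and values are UMIs summed over the muscle spots of a section, scaled to CPM with TMM factors (CPM in the following). In bulk sums of this kind, fewer cells of a type and less RNA per cell cannot be told apart. The 9 muscle genes together had 21642 to 27362 CPM without TMM scaling in E14.5 control muscle and 128417 and 131917 at E18.5. They had 16235 in the KO at E14.5, 71384 in the KO at E18.5 and 105199 in the cKO. The members were therefore also compared between sections with these genes held constant. Among markers of other cell types in E18.5 muscle spots, on the same scale, the 3 Schwann cell genes summed to 75.3 CPM in the KO and 12.4 in the cKO against 14.7 and 14.3 in the controls, and the 4 smooth muscle genes to 189 and 568 against 308 and 312. Fibroblast genes summed to 11297 CPM in the KO and 12479 in the cKO against 8262 and 10423, endothelial genes to 336 and 288 against 412 and 369, and erythrocyte genes to 419 and 320 against 699 and 690. The 6 heart genes summed to 1341 and 3601 CPM against 2053 and 1692, of which *Myl4*, a light chain that fetal skeletal muscle expresses too, made up 1334, 3596, 2046 and 1687. The part of these cells in the results was not tested. *Cacna1s* was 2.89-fold lower in the KO at E18.5 (log2 fold change −1.53 ± 0.15 SE, edgeR adjusted p = 0.0013) and −0.30 ± 0.14 in the KO at E14.5 (adjusted p = 0.34), whereas *Ctnnb1* was −0.07 in the cKO (adjusted p = 0.77). Where the probes of both genes lie relative to the mutations is not given in the sources used here, so neither value was read as a check of the labels. Numbers of probes per gene were not analysed here, so levels are compared between samples and not between genes. Exact stretches of 50 bases are shared by 22.6% of the *Myh6* transcript with *Myh7*, by 19.7% of *Myh1* with *Myh2* and by 10.6% of *Myh4* with *Myh1*, and where a probe lies in such a stretch the paralogs cannot be told apart.

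From E14.5 to E18.5, 4 of the 6 genes rose in control muscle and 2 fell. *Myh7*, the slow isoform, had 1123, 983 and 926 CPM in E14.5 controls 1, 2 and 3 and 3060.2 and 4094 CPM in E18.5 controls 1 and 2, with no overlap between the stages. It rose 3.54-fold (log2 fold change 1.82 ± 0.16 SE, adjusted p = 3.1e-05). On a scale on which the 9 muscle genes are held constant, where the median of all genes fell by 3.19, the direction turned and *Myh7* fell by 1.35.

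*Myh7b* and *Myh6* went the other way. *Myh7b* had 99.9, 97.1 and 118 CPM at E14.5 and 39.9 and 52.4 CPM at E18.5, again without overlap, and fell 2.28-fold (−1.19 ± 0.14, adjusted p = 0.00018). *Myh6* had 98.7, 55.9 and 81.5 CPM at E14.5 and 9.67 and 8.78 CPM at E18.5, which is 8.51-fold lower (−3.09 ± 0.24, adjusted p = 2.1e-05). The 2 neighbors on chromosome 14 thus moved in opposite directions on the TMM scale. Both falls held with either of the other scales.

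The adult fast isoforms rose more steeply. *Myh2* was at the edge of detection at E14.5, with 18, 23 and 8 UMIs in all muscle spots of controls 1, 2 and 3, or 0.760, 0.639 and 0.503 CPM. At E18.5 it had 44.4 and 73.0 CPM, 90.2-fold more (6.495 ± 0.27, adjusted p = 1.4e-06), rank 43 by size of change among 14832 genes tested. *Myh1* went from 129, 94.4 and 113 CPM to 1689 and 2513 CPM (18.7-fold, 4.23 ± 0.21, adjusted p = 2.5e-06). *Myh4* went from 32.7, 29.1 and 23.5 CPM to 238 and 344 CPM (10.2-fold, 3.35 ± 0.19, adjusted p = 4.8e-06), a rise that is not called with the 9 muscle genes held constant (0.185, adjusted p = 0.33). In this comparison 65.6% of all genes were called, 33.2% higher and 32.3% lower, so that a call by itself says little. The share of all genes without overlap between the stages was not counted. With library size alone, where the median of all genes moved by −0.735, all 6 kept their direction and their call.

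**Figure D1:**
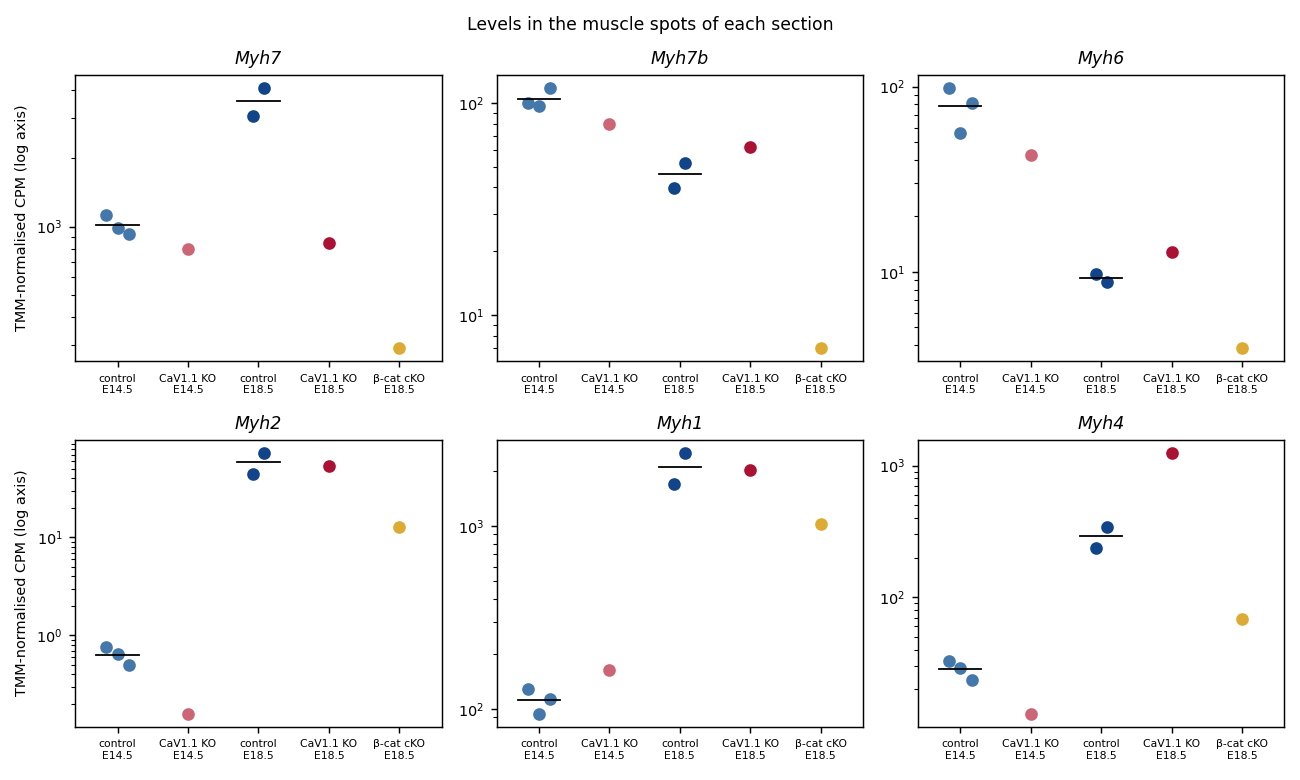
TMM-normalised CPM (log axis) of the 6 genes in the muscle spots of each section, with 1 point per section and a line at the mean of each control group. *Myh7* in the E18.5 mutants lies below both E18.5 controls, at 842 CPM in the KO and 291 CPM in the cKO, while *Myh4* lies above them in the KO and below them in the cKO.

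On the TMM scale, most other genes of the slow and fast programmes were higher at E18.5 too. The lists were not tested with the 9 muscle genes held constant, where the median of all genes moved by −3.19. Their directions on that scale are therefore not given. Of 11 fast genes tested (light chains, troponins, calcium handling), 11 were called higher at E18.5, with a median log2 fold change of 3.96 against −0.01 over all genes; *Mybpc2*, fast myosin-binding protein C, rose by 8.98 and *Pvalb*, the calcium buffer of fast fibers, by 7.27. Of 10 slow genes tested, 8 were called higher and 0 lower (median 2.02), led by *Mb* (myoglobin, 4.96) and *Myl2* (slow regulatory light chain, 4.17), while the slow troponins *Tnnc1* (−0.25, adjusted p = 0.17) and *Tnni1* (−0.37, adjusted p = 0.081) were not called. Of 18 regulators of fiber type, 14 were called higher and 3 lower, with *Ppargc1a*, the coactivator of oxidative metabolism, at 2.67 and *Tbx15* at 1.49. The perinatal isoform *Myh8* rose by 3.65, and *Myh3*, the embryonic isoform, was not called.

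Shares among the striated heavy chains do not depend on the scaling, though they do depend on the probes. *Myh7* made up 9.52%, 11% and 10.3% of the UMIs of the 8 heavy chains (the 6 members, *Myh3* and *Myh8*) in E14.5 controls 1, 2 and 3, and 5.24% and 7.07% at E18.5, so that its share was lower at E18.5 in both sections while its CPM was higher. *Myh1* held 1.05% to 1.26% at E14.5 and 2.89% and 4.34% at E18.5. *Myh4* held 0.261% to 0.325% at E14.5 and 0.408% and 0.593% at E18.5, and the shares of *Myh6* and *Myh7b* were 0.0152% to 0.0905% at E18.5 after 0.624% to 1.32% at E14.5. *Myh8* rose from 35.5% to 38.1% of these UMIs at E14.5 to 78.8% and 81.0% at E18.5.

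In the E14.5 CaV1.1 KO, no member passed the threshold, against 2.08% of all genes. *Myh4* had 13.1 CPM in the KO, below the lowest control (23.5 CPM), with a log2 fold change of −1.13 ± 0.27 (adjusted p = 0.088). *Myh6* had 42.8 CPM, also below the control range (−0.88 ± 0.28, adjusted p = 0.18), and *Myh2* had 4 UMIs (exact Poisson 95% interval 1.09 to 10.2, for counting error alone), or 0.159 CPM (−1.995 ± 0.78, adjusted p = 0.26). *Myh1* had 162 CPM, above the highest control (0.54 ± 0.24, adjusted p = 0.33), whereas *Myh7* at 800.0 CPM and *Myh7b* at 79.7 CPM lay below their control ranges (adjusted p = 0.47 and 0.32). DESeq2 called 2 (*Myh4* and *Myh6*), against 4.93% of all genes called by it. At an unadjusted p under 0.05 edgeR gave 3 of the 6 (*Myh2*, *Myh4*, *Myh6*). The share of all genes under that threshold was not counted, so this number cannot be set against it. *Myh4* was called without E18.5 control 1 or 2 in the fit (adjusted p = 0.039 and 0.040), and *Myh6* without E14.5 control 2 (−1.08, adjusted p = 0.036). Of the fast genes 4 of 11 were lower and 0 higher, with *Myoz1* at −2.25 and *Mybpc2* at −1.47, and of the slow genes 2 of 10 were lower, the light chains *Myl2* (−2.93) and *Myl3* (−2.84).

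At E18.5 the KO split the members. *Myh7* had 842 CPM in the KO against 3060.2 and 4094 CPM in the controls, also below the lowest E14.5 control (926 CPM), and was 4.25-fold lower (−2.09 ± 0.23, adjusted p = 0.0019). *Myh4* had 1249 CPM against 238 and 344 CPM, 4.29-fold higher (2.10 ± 0.24, adjusted p = 0.0019). Both directions and calls held with library size alone and with the 9 muscle genes held constant, where the median of all genes moved by 0.538 and 1.40. In this comparison 25.7% of all genes were called, 10.6% higher and 15.2% lower, and the controls are those of the stage and cKO comparisons.

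The other 4 members were not called in the E18.5 KO. *Myh1* had 2023 CPM in the KO, within the control range of 1689 to 2513 CPM (−0.06 ± 0.26, adjusted p = 0.90), and *Myh2* had 53.6 CPM, within 44.4 to 73.0 CPM (−0.13 ± 0.26, adjusted p = 0.75). Their sign turned with library size alone (0.48 and 0.41, not called) and with the 9 muscle genes held constant (1.35 and 1.28, called). On these scales the median of all genes moved by 0.538 and 1.403, and 53.9% and 84.1% of all genes were called. *Myh7b* at 62.0 CPM and *Myh6* at 12.8 CPM lay above both controls (0.43 ± 0.18 and 0.47 ± 0.31, adjusted p = 0.12 and 0.30), and both were called higher with library size alone (0.97 and 1.01, adjusted p = 0.0055 and 0.021). Without control 2 *Myh7b* was called too (0.64, adjusted p = 0.032), and the sign of *Myh1* and *Myh2* turned (0.26 and 0.27). *Myh7* and *Myh7b*, both slow isoforms, therefore lay on opposite sides of the controls in this section.

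On the TMM scale, other genes of the fast programme were lower in the section in which *Myh4* was higher. The lists were not tested with the 9 muscle genes held constant, where the median of all genes moved by 1.40. *Mylpf*, *Tnnt3* and *Myl1* of the fast list are themselves among those 9 genes. Whether the fast programme fell more than muscle RNA as a whole was not tested. Of the 11 fast genes, 10 were lower in the E18.5 KO and 0 higher, with a median of −1.25 against 0 over all genes: *Tnni2*, fast troponin I, fell by 1.97 (SE 0.21, adjusted p = 0.0017), *Mybpc2* by 1.71 and *Atp2a1*, the calcium pump of fast fibers, by 1.30. Of the 10 slow genes 6 were lower and 0 higher, with *Myl2* at −4.74 ± 0.25 and *Myl3* at −3.21 ± 0.31, while *Tnnt1*, slow troponin T, was at 0.08 ± 0.23. *Myh3* and *Myh8* fell by 1.86 and 1.18. Of the 18 regulators 4 were higher, with *Maf* at 0.87, and 5 lower, among them *Mef2d* (−0.90), *Sox6* (−0.85), a repressor of slow genes, and *Tbx15* (−0.75). In shares, *Myh4* made up 4.74% of the heavy chain UMIs of the KO against 0.408% and 0.593% in the controls, *Myh1* 7.67% against 2.89% and 4.34%, and *Myh7* 3.19% against 5.24% and 7.07%.

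The change between the stages was then compared between KO and controls. From E14.5 to E18.5, *Myh4* went from 13.1 to 1249 CPM in the KO and from 23.5 to 32.7 to 238 and 344 CPM in controls, and the change in the KO exceeded that in controls by 3.23 ± 0.36 on the log2 scale (adjusted p = 0.018). *Myh7* went from 800.0 to 842 CPM in the KO while it rose in controls, and the difference of the changes was −1.75 ± 0.29 (adjusted p = 0.026). The other 4 were not called, *Myh6* and *Myh7b* at 1.35 ± 0.42 and 0.83 ± 0.26 (adjusted p = 0.093 for both), *Myh2* at 1.87 ± 0.84 and *Myh1* at −0.59 ± 0.36 (adjusted p = 0.21 and 0.35). The 2 calls stand against 6.40% of all genes called, in a test that shares its samples with the comparisons before it. Without E14.5 control 3 neither was called (3.34 and −1.69, adjusted p = 0.071 and 0.082), and without E14.5 control 2 *Myh7* was not (−1.73, adjusted p = 0.056). Of all genes, 0 of 14922 were called without control 3 and 1.01% without control 2.

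**Figure D2:**
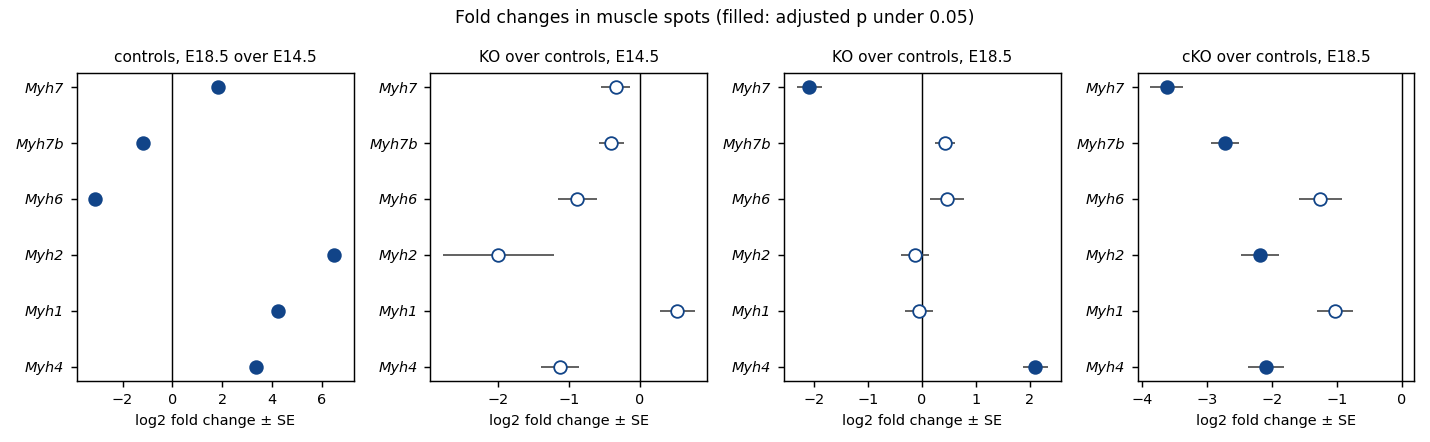
Log2 fold changes ± SE (edgeR) of the 6 genes in muscle spots in 4 comparisons, filled where the adjusted p is under 0.05. In CaV1.1 KO at E18.5, *Myh4* (2.10) and *Myh7* (−2.09) are filled on opposite sides of 0, while in β-cat cKO all 6 points lie below 0 and 4 are filled.

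In the β-cat cKO at E18.5, 4 of the 6 members were called lower, against 8.80% of all genes called and 5.62% called lower. All 6 lay below both controls, and the share of all genes that do so was not counted. *Myh7* had 291 CPM in the cKO, 12.3-fold less than in the controls (−3.62 ± 0.26, adjusted p = 0.00096), and lay below every E14.5 section too. *Myh7b* had 6.97 CPM against 39.9 and 52.4 CPM (6.61-fold lower, −2.73 ± 0.22, adjusted p = 0.0016). *Myh2* had 12.8 CPM against 44.4 and 73.0 CPM (4.57-fold lower, −2.19 ± 0.29, adjusted p = 0.0072). *Myh4* had 68.4 CPM against 238 and 344 CPM (4.25-fold lower, −2.09 ± 0.27, adjusted p = 0.0068), on the other side of the controls from the KO. *Myh1* at 1028 CPM and *Myh6* at 3.86 CPM were not called (−1.03 ± 0.28 and −1.26 ± 0.33, adjusted p = 0.061 and 0.060). DESeq2, which called 10.7% of all genes, called both. *Myh1* was called without E14.5 control 1 or E18.5 control 1 (adjusted p = 0.044 and 0.024), and *Myh6* without E14.5 control 1 or 2 (adjusted p = 0.029 and 0.014). The directions in muscle spots held on all scales, whereas in all kept spots, which include tissue outside muscle, *Myh6* turned to 0.67 (adjusted p = 0.41).

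Most of the fast programme was not called in the cKO: 1 of 11 genes was lower, *Tnni2* (−1.53 ± 0.21), and 0 were higher. The median of the 11 was −0.46, against −0.01 over all genes. Of the 10 slow genes 4 were lower, *Myl3* (−5.96 ± 0.37), *Myl2* (−4.72 ± 0.25), *Myoz2* (−1.03 ± 0.19) and *Myl6b* (−0.92 ± 0.18), while *Tnni1* and *Tnnt1* were at 0.29 and −0.51 and not called. *Myh3* and *Myh8* were at −0.05 and −0.36 and not called. *Ppargc1a* (−1.21), *Six4* (−1.17), *Tead1* (−0.63) and *Mef2a* (−0.49) were lower among the 18 regulators. In shares of heavy chain UMIs, *Myh7* made up 0.676% and *Myh4* 0.159% of the cKO section, and *Myh8* 84.2%, above both controls.

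Set against each other, all 6 members were higher in the E18.5 KO than in the cKO and 5 were called, against 7.30% of all genes called and 2.87% called higher. *Myh4* differed 18.3-fold (4.19 ± 0.32, adjusted p = 0.0012) and *Myh7b* 8.90-fold (3.15 ± 0.24, adjusted p = 0.0012). *Myh2* differed 4.18-fold, *Myh6* 3.30-fold and *Myh7* 2.89-fold (adjusted p = 0.012, 0.040 and 0.014). *Myh1* was not called (0.98 ± 0.31, adjusted p = 0.10). The call of *Myh6* was lost without E14.5 control 3 (adjusted p = 0.086), and *Myh1* was called without either E18.5 control (adjusted p = 0.048 in both). This comparison is of 1 section with 1 section, with the spread taken from the controls.

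At the level of spots, each spot was thinned to 5000 UMIs so that depth did not set the share with a UMI. *Myh7* was found in 98.6% to 99.6% of muscle spots of E14.5 controls, in 98.3% and 99.1% at E18.5, in 89.2% of the E18.5 KO and in 53.1% of the cKO. *Myh4* was found in 11.8% to 20.5% of muscle spots of E14.5 controls, in 52.1% and 61.3% at E18.5, in 97.9% of the E18.5 KO and in 23.6% of the cKO. *Myh7b* was found in 13% and 15.4% of E18.5 control spots, in 28.1% of the KO and in 2.71% of the cKO. Spots outside muscle gave lower shares of *Myh1*, *Myh4*, *Myh7* and *Myh7b* in each section, for *Myh4* 21.7% and 22.2% in the E18.5 controls, 77.3% in the KO and 4.55% in the cKO, and a 55 µm spot beside muscle can hold some of it. *Myh6* was found more often outside muscle in E18.5 control 1 (4.46% against 2.97%) and in the cKO (5.31% against 1.72%), and so was *Myh2*, with few UMIs, in E14.5 control 1 (3.41% against 2.91% without thinning). Without thinning, *Myh4* had a UMI in 88.9% and 95.1% of E18.5 control muscle spots, 99.9% of the KO and 66.3% of the cKO.

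To see whether slow expression was uneven among muscle spots, spots were ranked within a section by the summed level of the slow light chains *Myl2* and *Myl3*. *Myh7* rose from 825 to 4169 CPM (without TMM scaling) from the lowest to the highest quartile in E18.5 control 1 and from 1290.0 to 5029 CPM in control 2, ratios of 5.05 and 3.90. *Myh7b* rose 3.43-fold and 2.33-fold over the same quartiles, whereas *Myh1* was even (1.0 and 1.01) and *Myh4* nearly so (1.06 and 1.19). At E14.5 the ratio of *Myh7* was 1.31 to 1.57 in controls and 1.04 in the KO. In this KO section *Myl2* had 4.065 CPM with TMM scaling, against 27.4 to 35.3 CPM in the controls, and *Myl3* had 5.70 CPM. Its ranks rest on very few UMIs, so that a ratio near 1 says little there. Ranks in the E14.5 controls rest on few UMIs as well, so their ratios do not measure how even slow expression was. At E18.5 the ratio of *Myh7* was 2.13 in the KO and 2.68 in the cKO. In these sections *Myl2* had 20.9 and 21.2 CPM against 490.5 and 627 CPM in the controls, so that the ranks there rest on few UMIs too. In the cKO *Myh7* had 162 CPM in the lowest and 434 CPM in the highest quartile.

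**Figure D3:**
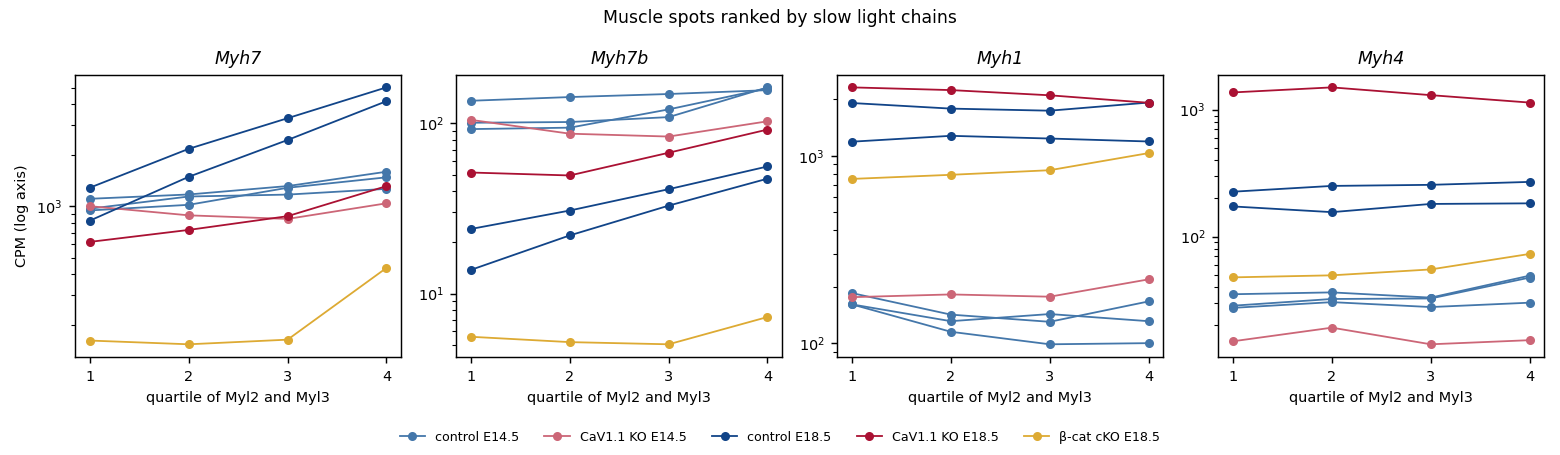
CPM (log axis, without TMM scaling) of 4 members in quartiles of muscle spots ranked by *Myl2* and *Myl3* within each section, with 1 line per section. *Myh7* climbs from 825 to 4169 CPM and from 1290.0 to 5029 CPM in the E18.5 controls, while *Myh1* and *Myh4* are close to flat in the same sections (ratios of 1.0 to 1.19).

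The genes most like each member across E18.5 control spots were found among 10359 genes by Pearson's r on log-normalized values, given here as a description over 3092 and 2199 spots that share section and depth. For *Myh7* they were *Myl2* (r = 0.792 and 0.822 in controls 1 and 2), *Tnnt1* (0.784 and 0.821), *Tnnc1* (0.781 and 0.784), *Myl3* and *Tnni1*, all slow sarcomere genes. *Myh7b* was most like *Myh7* (0.348 and 0.324), followed by *Tnnc1* and *Tnnt1*. *Myh4* was most like *Mybpc2* (0.481 and 0.545), *Tnnt3* (0.477 and 0.533) and *Myh8* (0.456 and 0.517) and least like *Myh3* (−0.446 and −0.407). *Myh2* followed *Csrp3* (0.270 and 0.294) and *Myh3* (0.256 and 0.219), and *Mybpc2*, *Pvalb* and *Myh4* were the lowest for it. *Myh1* was most like *Des* (0.346 and 0.325), and *Myh6* was most like *Padi2* (0.023 and 0.269) and *Tnnc1* (0.149 and 0.114), with r far apart between the controls for the first. Between *Myh7* and *Myh4*, r was −0.023 and 0.002 in the controls, −0.101 in the KO and 0.047 in the cKO.

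**Figure D4:**
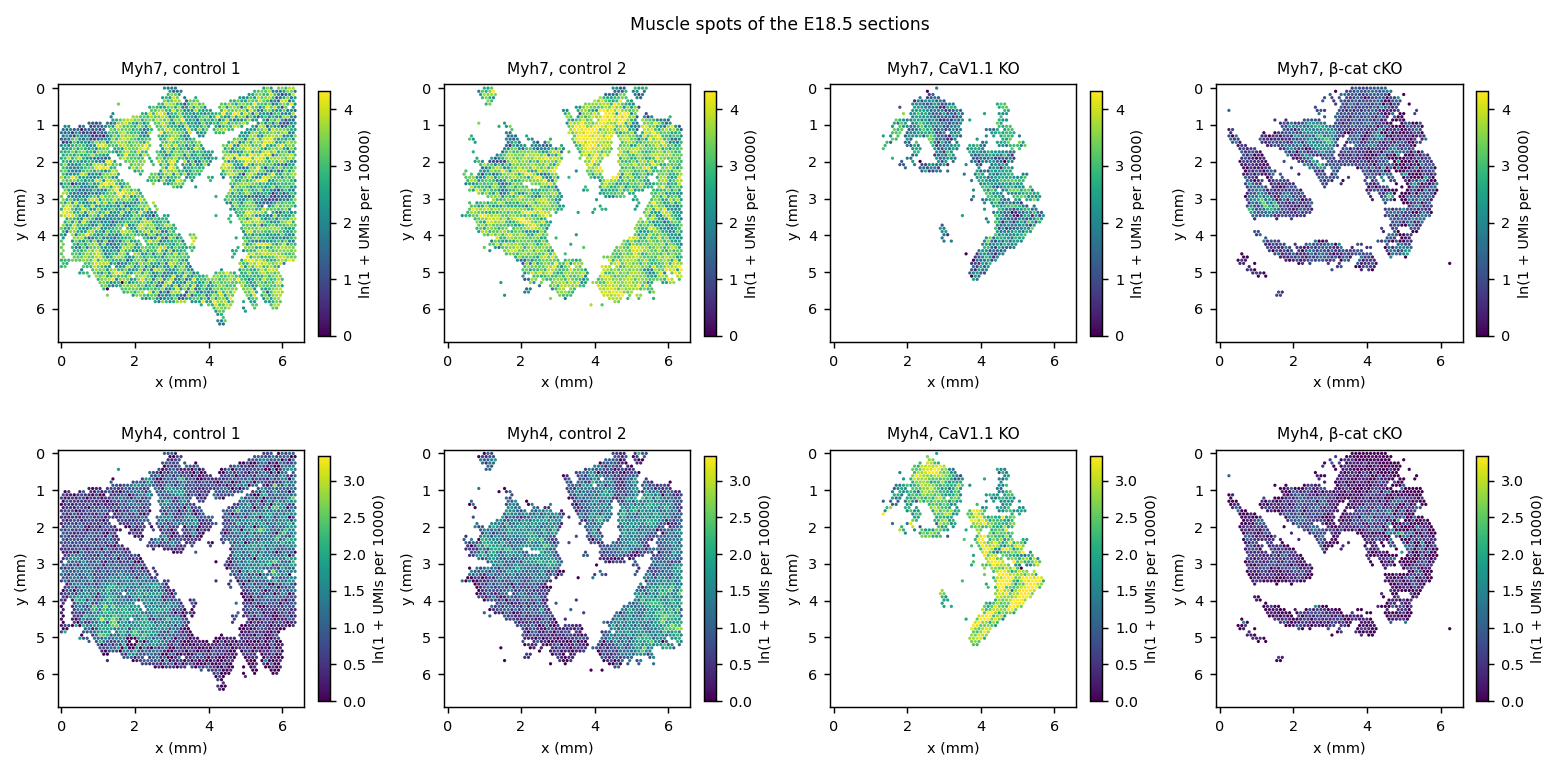
Muscle spots of the 4 E18.5 sections by position (x and y in mm), colored by ln(1 + UMIs per 10000) of *Myh7* (top) and *Myh4* (bottom) on 1 color scale per gene. *Myh7* is highest in both controls and *Myh4* in the CaV1.1 KO, whose section covers less muscle (813 spots) than the others.

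How alike neighboring spots were differed between the members. Moran's I, which is near 0 for a random pattern, was 0.472 and 0.620 for *Myh1*, 0.486 and 0.558 for *Myh4* and 0.335 and 0.424 for *Myh7* in E18.5 controls 1 and 2. It was lower for *Myh2* (0.140 and 0.216), *Myh6* (0.034 and 0.114) and *Myh7b* (0.069 and 0.076), the members with the fewest UMIs in these sections. At E14.5 *Myh6* had 0.207 to 0.306 in controls, above its E18.5 values. Without thinning it had a UMI in 71.6% to 84.1% of muscle spots there, against 12.5% and 13.1% in the E18.5 controls. How far sparse counts lower Moran's I was not tested, so these values do not rank the members by pattern. In the mutants at E18.5 *Myh4* had 0.552 (KO) and 0.268 (cKO), and *Myh7* 0.377 and 0.411.

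Along the fibers, the center was taken as the 15% of muscle spots highest in 8 endplate genes and the periphery as the 15% highest in 4 myotendinous genes, with no member among them. At E14.5, 4 members were enriched in the center relative to the periphery and 1 was lower, against 20.4% of all genes called (11.8% higher and 8.65% lower). The slow and cardiac genes divided: *Myh6* had 172, 103 and 143 CPM in the center and 45.4, 36.2 and 52.4 CPM in the periphery of controls 1, 2 and 3 (3.10-fold, 1.63 ± 0.12, adjusted p = 1.5e-12). *Myh7b* had 124, 152 and 170 CPM in the center and 79.7, 73.4 and 85.9 CPM in the periphery (1.87-fold, 0.90 ± 0.08, adjusted p = 4.8e-11). *Myh7* was 1.35-fold lower in the center (−0.43 ± 0.06, adjusted p = 2.4e-06), and with regions set by distance its sign turned (0.13, adjusted p = 0.20). This distance is to the nearest kept spot outside muscle, within 150 µm for periphery and beyond 250 µm for center. A border of the section without such spots does not count as an edge, and a single such spot inside muscle does. For *Myh6* and *Myh7b* the center did not overlap with the periphery, nor did it for the fast genes *Myh1* (1.45 ± 0.09) and *Myh4* (0.95 ± 0.17). The share of all genes without such an overlap was not counted. *Myh2*, with few UMIs, was not called (1.87 ± 0.76, adjusted p = 0.082). In the same comparison, 8 of 11 fast genes and 5 of 10 slow genes were called with more in the center, and 0 with less. Their medians were 0.39 and 0.17, against 0.01 over all genes. The paper warns that tenocyte RNA in spots between muscle and tendon can dilute muscle transcripts in the periphery. Regions were not fitted with the 9 muscle genes held constant. The part of such dilution in the region differences at E14.5 and E18.5 was not tested.

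At E18.5 the members were compared with the muscle between the regions. *Myh4* was lower in the periphery, at 122 and 155 CPM against 283 and 406 CPM in intermediate muscle of controls 1 and 2 (2.46-fold, −1.30 ± 0.07, adjusted p = 1.7e-15), and this held in each alternative. *Myh1* was higher there, at 2253 and 3424 CPM against 1636 and 2496 CPM (0.46 ± 0.06, adjusted p = 2.8e-07), though its sign turned with regions set by distance (−0.24, adjusted p = 0.12). *Myh6* (0.70 ± 0.19), *Myh2* (0.19 ± 0.07) and *Myh7* (−0.23 ± 0.07) were also called, 5 of 6 members against 30.8% of all genes, and DESeq2 called *Myh1* and *Myh4* alone. Without control 1 the same 3 lost their call (0.26, 0.12 and −0.24, adjusted p = 0.50, 0.42 and 0.097), as did *Myh7* without control 2 (−0.21, adjusted p = 0.16). *Myh7b* was not called (0.12 ± 0.08, adjusted p = 0.27). In the KO, regions by the scores had *Myh4* at 993 CPM in the center, 1269.8 in intermediate muscle and 1643 in the periphery. By distance to spots outside muscle it had 1734, 1429 and 870.0 CPM without TMM scaling. The paper reports *Chrna1* and *Musk*, both genes of the center score, as spread over the muscle in the E18.5 KO. The spots highest in this score may thus not mark the fiber center there. These mutant orders were not tested.

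In the center at E18.5, 3 members were called against 12.1% of all genes. *Myh4* had 194 and 300 CPM in the center against 283 and 406 CPM (−0.49 ± 0.07, adjusted p = 2.3e-06), *Myh1* had 1432 and 1924 against 1636 and 2496 CPM (−0.28 ± 0.06, adjusted p = 0.0012), and *Myh6* was higher (0.69 ± 0.19, adjusted p = 0.011). *Myh7* (−0.17 ± 0.07), *Myh2* (−0.10 ± 0.07) and *Myh7b* (0.12 ± 0.08) were not called (adjusted p = 0.12, 0.43 and 0.39). DESeq2 called 0 of the 3, *Myh4* turned with regions set by distance (0.82, adjusted p = 2.2e-06), and without control 2 *Myh1* and *Myh6* were not called (−0.19 and 0.18, adjusted p = 0.26 and 0.78). Of the 11 fast genes, 11 were lower in the center than in intermediate muscle (median −0.32 against −0.04 over all genes) and 11 were lower in the periphery (median −0.52).

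**Figure D5:**
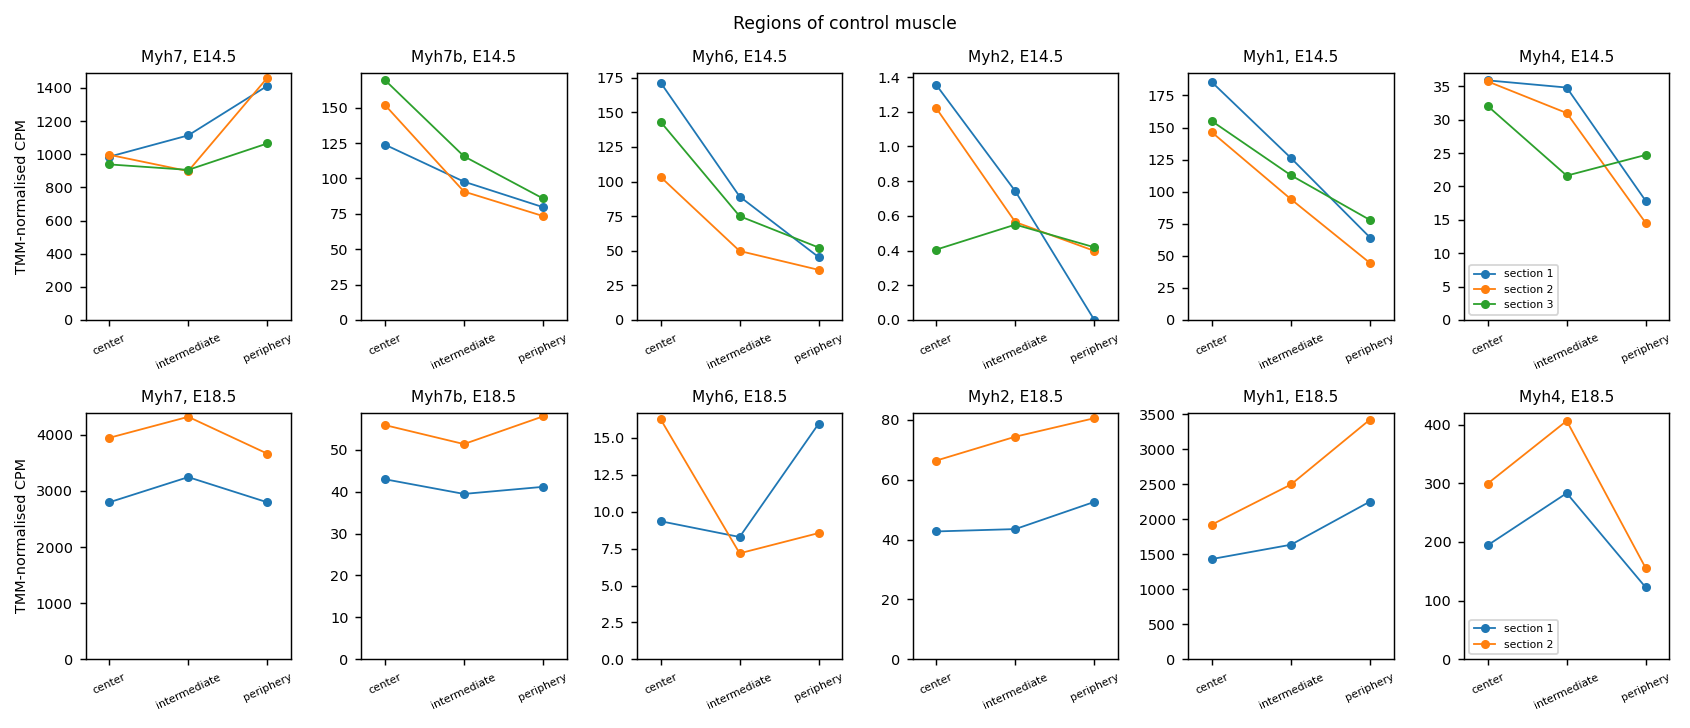
TMM-normalised CPM of the 6 genes in the center, the intermediate muscle and the periphery, with 1 line per control section at E14.5 (top) and at E18.5 (bottom). At E14.5 *Myh6*, *Myh7b* and *Myh1* fall from center to periphery in 3 of 3 sections, and at E18.5 *Myh4* is highest in intermediate muscle in both sections.

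*Myh6* was looked at outside muscle because it marks heart muscle. At E14.5 most of its UMIs lay in muscle spots, 2338, 2012 and 1297 in controls 1, 2 and 3, against 323, 124 and 29 in other spots. At E18.5 other spots held 583 and 64 UMIs in the controls, 505 in the KO and 1080 in the cKO, against 532, 404, 220 and 158 in muscle. At E18.5, 94.7% to 96.4% of those outside UMIs lay in the 20 spots highest in *Myh6*, and the same 20 spots held 619, 79, 317 and 926 UMIs of *Myl7*, the atrial light chain. In E14.5 controls the 20 highest spots held 1, 4 and 8 UMIs of *Myl7*, and in the E14.5 KO 40. In muscle spots *Myl7* had 36 to 80 UMIs in E14.5 controls, 103 in the E14.5 KO and 54 to 191 in the E18.5 sections. Across muscle spots, r between *Myh6* and *Myl7* was 0.425 in E18.5 control 1 (3092 spots) and 0.194 in the E18.5 KO (813 spots), and −0.054 to 0.036 in the other 6 sections, and the part of heart tissue in the *Myh6* values of muscle was not tested. The natriuretic peptide genes of heart, *Nppa* and *Nppb*, had at most 8 and 1 UMIs in the muscle spots of any section. In the 20 outside spots highest in *Myh6*, *Nppa* had 0 to 3 UMIs too, and *Nppb* had 0 outside muscle. Low counts of these genes in muscle therefore say little about heart RNA. Of the other listed heart genes, *Tnni3* had 10 to 109 and *Mybpc3* 6 to 244 UMIs in muscle spots.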

How the data were processed

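The authors made the deposited counts, UMIs per gene and spot, with Space Ranger (per the file headers version 2.0.0 for the E14.5 KO and 2 of the E14.5 controls, 1 and 2, and version 2.0.1 otherwise) from FFPE probe libraries on mm10 (GRCm38), without normalization. The Moran's I scores that the authors deposited per gene were not used. Spots with at least 1000 UMIs were kept. Sums of UMIs over the spots of a region, 1 per section, were the replicates, as each section is from its own embryo, and were tested with edgeR 4.0.16 (filterByExpr, TMM, quasi-likelihood F test, SE from the F statistic, Benjamini-Hochberg adjusted p under 0.05 over all genes tested). All adjusted p are from this test unless DESeq2 (1.42.0) is named. The 8 muscle sums entered 1 fit with 5 groups, and fits of regions had a term for the section, as they come from 1 embryo. Center and periphery of a section deviate together from their group means (r across genes 0.327, 0.338 and 0.089 at E14.5, 0.573 at E18.5). At E18.5 the 2 sections give the same value by construction. The code was tested on simulated counts. Every member was named in every comparison, and up to 4 genes of each list, those with the largest called changes, were named with it. Further members of the lists were chosen after their values were seen where a sentence gives a gene that was not called (*Tnnt1*, *Tnni1*, *Tnnc1*) or completes a count. The members, the lists of slow, fast and regulator genes and the regions were chosen with earlier results of these data known. Comparisons of anatomical parts of the diaphragm are not reported here. *Tpm3*, *Vgll2*, *Myod1*, *Myh13* and *Myh15* were not analysed here. Promoters are from RefSeq (GRCm38.p6), matched by symbol for 6 of 6 members, and shared transcript stretches from GENCODE vM21. Alternatives were DESeq2, no filter on low counts, other scales, other spot sets, region sizes, and leaving out each control. They were read for the members and for shares of all genes called, whereas the lists were read with TMM scaling only. Scaling by library size alone was added after seeing the data.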

Additional observations from a re-analysis of the deposited data

Results flagged for a closer look

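The change of *Myh4* from E14.5 to E18.5 differed between CaV1.1 KO and controls by 3.23 on the log2 scale (SE 0.36, edgeR adjusted p = 0.018), in a test of the difference itself. It was higher in the KO section than in 2 of 2 controls at E18.5 and lower than in 3 of 3 at E14.5. The difference lay between 2.99 and 3.52 when a control was left out and was not called without E14.5 control 3 (adjusted p = 0.071). In that fit 0 of 14922 genes were called.

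The change of *Myh7* differed between the same groups by −1.75 (SE 0.29, edgeR adjusted p = 0.026), with the KO section below 2 of 2 controls at E18.5 and below 3 of 3 at E14.5. It lay between −1.94 and −1.52 when a control was left out and was not called without E14.5 control 2 or 3 (adjusted p = 0.056 and 0.082). Those fits called 1.01% and 0% of all genes.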

How the results depend on the processing

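Of 612 changes recomputed for single members under an alternative, 508 kept direction and side of the threshold, 44 were called where they had not been, 39 lost their call and 21 turned sign, and no level without TMM scaling moved by more than 6.86% with a minimum of 5000 UMIs per spot or a muscle score without fast isoforms. The numbers of called members that follow moved by more than 1.5 times, and the causes were not tested unless named. They stand against shares of all genes called that moved with the setting too. For the E14.5 KO this share was 2.08% in the fit described above, 4.93% with DESeq2 and 2.81% without the filter. It was 33.3% with the 9 muscle genes held constant, 2.07% in all kept spots and 2.46% with the compared groups alone. For the E14.5 KO, with 0 called, DESeq2 gave 2, and no filter on low counts, the 9 muscle genes held constant, all kept spots and the compared groups alone gave 1 each, with 0 to 1 when a control was left out. For the E18.5 KO, with 2 called, the 9 muscle genes gave 6 and library size alone 4. Of all genes, 84.1% and 53.9% were called there, against 25.7%. For the change between stages, DESeq2, the 9 muscle genes and library size alone called 10.7%, 31.8% and 31.4% of all genes, against 6.40%. In the center at E18.5, DESeq2, no section block and regions by position called 3.18%, 0.988% and 8.32%, against 12.1%. In the periphery they called 13.4%, 6.99% and 16.9%, and region shares of 10% and 25% called 33.3% and 24.4%, against 30.8%. For the change between stages in the KO, with 2 called, DESeq2 gave 4, the 9 muscle genes 5, library size alone 4, and leaving out a control 0 to 4. In the center at E18.5, with 3 called, DESeq2 and the fit without the section block gave 0, regions by position 1, and leaving out a control 1 to 3. In the periphery, with 5 called, DESeq2 gave 2, no section block 1, and region shares of 10% and 25% and regions by position 3 each, with 2 to 4 when a control was left out.

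The replicate numbers of controls were not taken to pair the samples (r of the deviations −0.329 for number 1 and −0.321 for number 2 across stages). With 2 controls at E18.5 their deviations mirror each other, so these r cannot decide on a pairing. With the replicate block, 2 members rather than 4 were called in the cKO, 3 rather than 5 between KO and cKO and 0 rather than 2 for the change between stages, with *Myh2* at 0.15 in the E18.5 KO. For the first 3 of these comparisons the block lowered the share of all genes called to 0.546%, 3.59% and 0%, from 8.80%, 7.30% and 6.40%. The compared groups alone could not be fitted for KO against cKO, which leaves no residual degree of freedom.

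With the 9 muscle genes held constant, signs turned for *Myh7* over the stages (−1.35), for *Myh7* (0.23) and *Myh7b* (0.15) in the E14.5 KO, for *Myh1* (1.35) and *Myh2* (1.28) in the E18.5 KO and for *Myh1* in the change between stages (0.25). Library size alone turned *Myh1* (0.48) and *Myh2* (0.41) in the E18.5 KO, as did leaving out control 2 (0.26 and 0.27, against −0.31 and −0.44 without control 1), and all kept spots turned *Myh6* in the cKO (0.67). Regions by position turned *Myh7* at E14.5 (0.13), in the center at E18.5 *Myh2* (0.011), *Myh4* (0.82), *Myh6* (−0.072) and *Myh7* (0.25), and in the periphery *Myh1* (−0.24), *Myh2* (−0.19) and *Myh7b* (−0.31), and regions of 10% turned *Myh6* in the center (−0.30). Depth limits *Myh2* at E14.5 and *Myh6* at E18.5, and intervals over counts cover counting error alone.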
